A study of Mus musculus with 4 samples.

Results

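CIS and the SOCS proteins form a family of 8 feedback inhibitors of cytokine signalling, encoded in the mouse by Cish and Socs1 to Socs7. The accessible chromatin assigned to these genes in natural killer (NK) cells is described here. Regions were chosen by position alone: an accessible region belonged to the family if, of all protein-coding genes, the one whose span lay nearest was one of the 8. In all, 69 of 91266 regions met this rule (0.0756%). The study compared cultured splenic NK cells, wild type and of strain C57BL/6, kept for 72 h in interleukin-15 (IL-15) at low dose or at high dose, with 2 samples per dose and 4 in all. Wild type and strain were shared by both groups, and the labels give neither the concentrations nor the age of the mice. Open chromatin was mapped with a transposase that cuts accessible DNA (ATAC-seq), from about 75000 cells per replicate. The authors deposited the list of all regions and their own lists of regions that went up or down between the doses, but not which dose was the reference, so up and down are not assigned to a dose. The tables analysed hold positions only, so depth is unknown and neither the spread between replicates nor any test of the doses could be computed. The lists are the authors' calls.

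IL-15 is held by its receptor on the beta chain and the common gamma chain, where the kinases JAK1 and JAK3 activate STAT transcription factors, STAT5 above all. STAT5 in turn switches on Cish and several Socs genes, whose proteins bind activated receptors and kinases through an SH2 domain and recruit a ubiquitin ligase through their SOCS box. SOCS1 and SOCS3 also block JAK kinases directly, and CIS is known as a brake on IL-15 signalling in NK cells.

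The labelled cell type was checked first against marker genes. A region lay over an end of the gene at 10 of 10 NK cell markers, among them Ncr1, Eomes, Tbx21 and Prf1. The same was true of 2 of 5 T cell markers (Cd3e and Cd5), 1 of 5 B cell markers (Ebf1) and 1 of 5 myeloid markers (Cd14). No region was assigned to Cd4, Cd8b1, Ms4a1, Cd79a, Lyz2 or Mpo. Accessibility at a marker is not a measure of how many cells of a type were present.

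The start sites of the family came first, because the promoters of several members are textbook targets of STAT factors. RefSeq promoter windows (GRCm38.p6, 250 bases before to 50 bases from the annotated start on) were at hand for Cish, Socs1, Socs3 and Socs4. Both strands of each window were searched for STAT sites (TTCNNNGAA), and the matches that were found are printed in capitals, in the direction of transcription. The Cish stretch runs from 5 bases before the annotated start, and the Socs3 stretch lies upstream of it.
Cish, chr9:107296654-107296683, plus strand: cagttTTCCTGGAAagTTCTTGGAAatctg
Socs3, chr11:117969502-117969531, minus strand: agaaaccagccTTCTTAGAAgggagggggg

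Cish held 2 STAT motifs side by side, at bases 1 to 9 and 12 to 20 counted from the annotated start, with 2 bases between them. Socs3 held 1, from 154 to 146 bases before its start. All 3 matches lay inside an accessible region. Socs1 and Socs4 held none in these windows. Among 21263 windows of protein-coding genes, 7.69% contained at least 1 STAT motif, and among the 9060 windows that lay wholly inside an accessible region 5.94% did. Only 86 windows (0.404%) contained 2 or more. The spacing was examined after the sequences had been seen: Cish was the one window of 21263 with 2 motifs exactly 11 bases apart from start to start, and 1 further window had a pair within 1 base of that distance. Of the 29 windows with 2 or more motifs lying wholly in an accessible region, 1 was in a listed region, that of Emp1 in the up list, a gene named only because of this count. Of all 9060 wholly covered windows, 0.386% were in an up region and 0.177% in a down region.

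The other motifs searched were AP-1 (TGANTCA), RUNX (TGTGGT), T-box (AGGTGT) and ETS (CCGGAAG), on both strands. The sole match in the 4 family windows was a T-box motif in Cish at bases 30 to 35 after the start, downstream of and not overlapping the STAT pair. Over all 21263 windows the share with a match was 6.99% for AP-1, 15.0% for RUNX, 12.7% for T-box and 11.6% for ETS. Among the 9060 windows wholly inside a region, as the 4 family windows are, it was 4.17%, 12.1%, 9.71% and 21.5%, in the same order. After the sequences had been seen, an interferon regulatory factor (IRF) motif, GAAA repeated after any 2 bases, was added, because repeats of these letters stood out in Socs1. Socs1 held 2 overlapping matches, from 83 to 74 and from 77 to 68 bases before its start, and the other 3 windows held none. The motif was present in 3.35% of all windows and 2.97% of those wholly inside a region. The 250 bases before the Socs1 start are shown with both matches in capitals, since SOCS1 also restrains interferon signalling, followed by the 250 bases that lead up to the Cish start, which hold no match to any of these motifs.
Socs1, chr16:10785537-10785786, minus strand: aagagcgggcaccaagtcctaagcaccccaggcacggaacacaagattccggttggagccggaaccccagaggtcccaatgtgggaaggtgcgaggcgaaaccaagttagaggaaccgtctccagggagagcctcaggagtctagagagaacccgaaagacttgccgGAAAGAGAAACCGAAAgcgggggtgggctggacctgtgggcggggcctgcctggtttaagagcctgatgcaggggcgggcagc
Cish, chr9:107296409-107296658, plus strand: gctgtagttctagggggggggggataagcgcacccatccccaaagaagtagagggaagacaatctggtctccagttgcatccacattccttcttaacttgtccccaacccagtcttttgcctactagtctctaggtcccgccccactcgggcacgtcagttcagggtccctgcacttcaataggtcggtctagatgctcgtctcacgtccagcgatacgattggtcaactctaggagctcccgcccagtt

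Each of the 4 windows lay wholly inside 1 accessible region, and none of these regions was in either list. The Cish start region was 979 bp wide, at chr9:107296006-107296984. It reached 653 bases before the start and 325 bases beyond it. The Socs1 start region was 1147 bp wide (chr16:10784976-10786122) and extended about as far to either side, 586 bases before and 560 after the start. That of Socs3 was narrower, 783 bp at chr11:117968879-117969661, with 295 bases before the start and 487 after. Socs4 had the widest of these, 1326 bp at chr14:47276108-47277433, which also overlapped the neighbouring gene Wdhd1, whose span lies 59 bp from that of Socs4. Wholly covered windows were common: 42.6% of all 21263 lay inside a region, and the median width of those regions was 1045 bp. Regions at start sites were rarely listed anywhere, with 35 of the 9060 covered windows in an up region (0.386%) and 16 in a down region (0.177%). Finding none among 4 windows is close to that background.

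**Figure D1:**
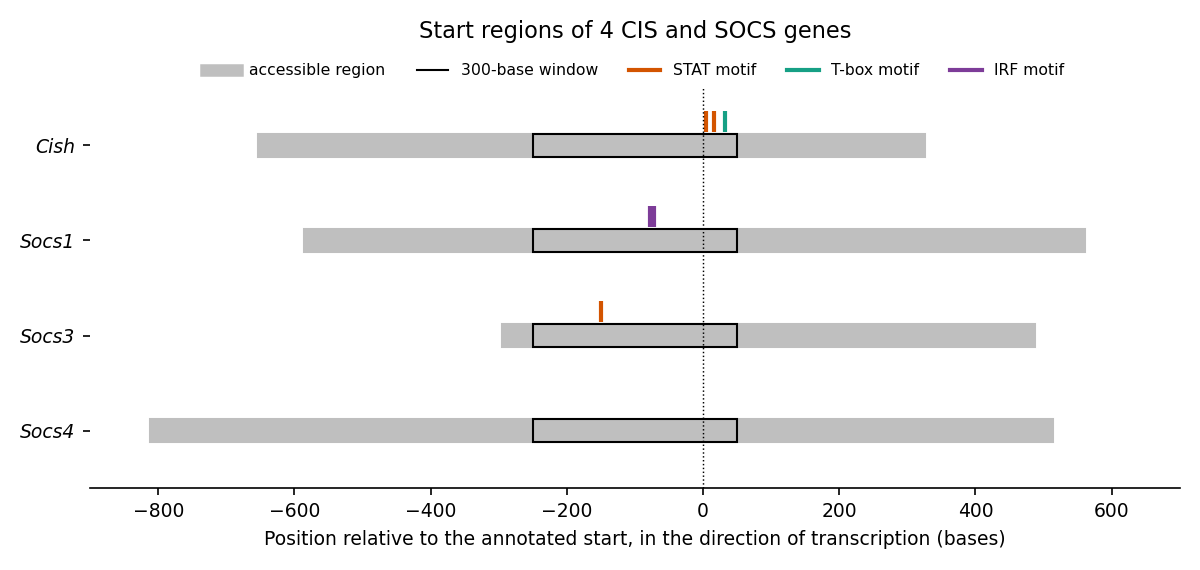
Accessible regions (grey bars) and RefSeq promoter windows (outlined) at the starts of Cish, Socs1, Socs3 and Socs4, by position relative to the annotated start in bases, with motif matches as coloured ticks. Every window lies inside its region, the STAT pair of Cish sits just after the start, the Socs3 match lies 154 to 146 bases before it, and Socs4 shows no match.

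Across the family, 4 of the 69 regions were in the up list (5.80%, 95% Wilson interval 2.28 to 14.0%) and 1 was in the down list (1.45%, 0.256 to 7.76%). Over all 91266 regions, 4.21% were up and 1.40% were down. Together 5 of 69 were listed (7.25%, 3.13 to 15.9%), against 5.61% of all regions. Without Socs6, 2 of 53 regions were up (3.77%) and 0 down, and with the nearest gene of any biotype 1 of 44 was up (2.27%) and 1 down (2.27%), so the side of the background on which the up share falls depends on these choices. The family's shares were near the background, and the intervals, which cover counting error only, contain it. All 5 listed regions were assigned to Socs2, Socs5 and Socs6. By the nearest gene of any biotype, the up region that stayed with a member was that of Socs6 at 5.73 kb. The others went to noncoding genes, from Socs2 to 5730420D15Rik, from Socs5 to C330024C12Rik and from Socs6 to Gm7662. None of the 32 regions of Cish, Socs1, Socs3, Socs4 and Socs7 was listed. These are the 5 members without a listed region, so their count of 0 follows from the choice and sets no limit. Cish, Socs1 and Socs3, with 0 of 24 regions listed, are among these 5. The 12.5% that such a count would otherwise allow is therefore no limit either. A share like that of all regions could not have been told from 0 with so few regions.

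**Figure D2:**
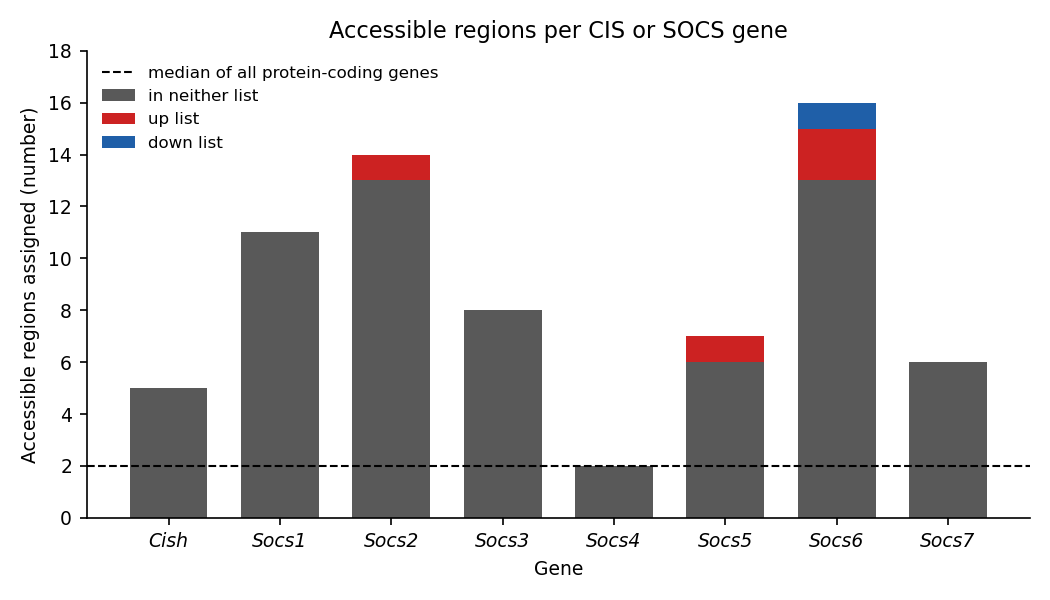
Number of accessible regions assigned to each of the 8 genes, stacked by the authors' lists (grey in neither, red up, blue down), with the median of all protein-coding genes as a dashed line at 2. Listed regions occur at Socs2, Socs5 and Socs6 alone, and Socs6 has the most regions (16).

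The listed regions lay outside the genes. Of the 20 regions in or touching a member's span, 0 were listed, which allows up to 15%, and all 5 listed regions were among the 49 regions outside. The nearest of them was 5.73 kb from its gene and the farthest 127 kb. Among all regions, those in or touching a protein-coding gene were up in 3.42% and down in 1.36% of cases, and those outside genes in 5.46% and 1.45%. Of the family's regions, 29.0% were in or touching the gene, against 61.1% of all regions. Gene length and gene spacing were not taken into account. The members span 1.73 kb (Socs1) to 36.3 kb (Socs7). Of the 49 regions outside, 13 belong to Socs6, whose neighbour below is 2147 kb away. The median distance of the family's regions outside was 14.6 kb, against 19.2 kb for all regions outside genes.

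Family regions had a median width of 430 bp (range 150 to 1476 bp, quartiles 250 and 730 bp). The median of all regions was 400 bp (150 to 3295 bp, quartiles 252 and 653 bp). The 6 widest all lay over gene ends: at 7 of the 8 genes, all but Socs3, 1 region overlapped an end, and these 7 regions measured 948 to 1476 bp with a median of 1213 bp. A region over an end was present at 48.7% of all protein-coding genes. The 5 listed regions measured 303 to 759 bp, and 4 of them were wider than the family's median. The median width was 453 bp over the whole up list and 537 bp over the down list.

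**Figure D3:**
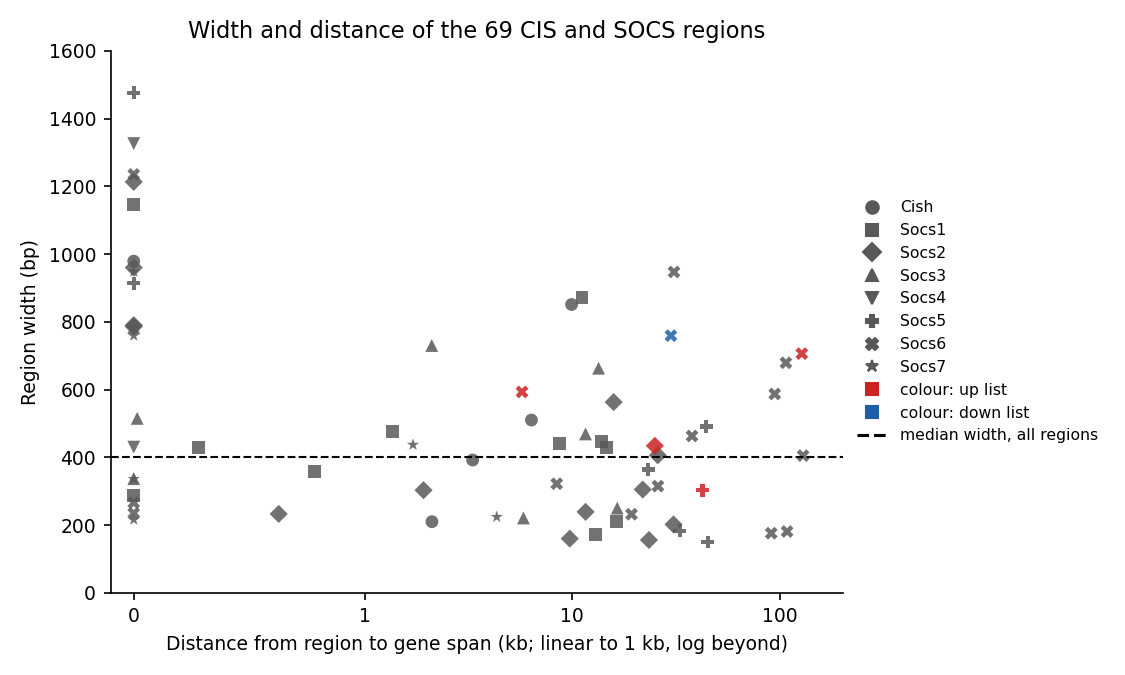
Width in bp of the 69 regions against their distance in kb from the gene they were assigned to (linear up to 1 kb, logarithmic beyond), with symbols for genes and colours for the authors' lists. Regions above 1000 bp are all at distance 0, while the 4 up regions and the 1 down region lie between 5.73 and 127 kb away at widths of 303 to 759 bp.

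Cish encodes CIS, and its gene spans chr9:107296659-107302784 on the plus strand. It was assigned 5 regions, all unlisted, totalling 2942 bp. A region of 210 bp lay 2.11 kb before the start and the start region described above followed. The other 3, beyond the end of the gene, were 392 bp at 3.32 kb, 510 bp at 6.36 kb and 851 bp at 9.93 kb. No region lay inside the gene apart from that over its start. Mapkapk3, which encodes a stress-activated kinase, lies 6.78 kb before Cish, and by the nearest-gene rule the regions closer to it were assigned to Mapkapk3. Of the 9 regions assigned to Mapkapk3, 3 were up: 235 bp at 9.03 kb, 334 bp at 17.8 kb and 380 bp at 31.5 kb upstream of Cish, all within Mapkapk3. They are the only listed regions within 100 kb of Cish, where 23 regions lay in all, and 4.21% of all regions were up. Which gene they act on, if any, was not tested. Hemk1, the neighbour on the other side, had 4 regions, none listed. Among the 1145 protein-coding genes with exactly 5 regions, 77.6% had none listed.

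Socs1 encodes the inhibitor of JAK kinases that limits both interferon and common gamma chain cytokine signals. The gene is only 1729 bp long (chr16:10783808-10785536, minus strand), yet 11 regions totalling 5267 bp were assigned to it, a number reached by 9.93% of protein-coding genes. All 11 fell within 19.4 kb, with a median gap of 738 bp, and 8 of them lay beyond the end of the gene. A group of 6 stood 8.69 to 16.4 kb past the end, the widest of 871 bp at 11.1 kb. The remaining 5 surrounded the gene, from 1.36 kb past its end to 784 bp before its start. None was listed, as was the case for 53.3% of the 276 genes with 11 regions. The nearest listed region was an up region of 597 bp, 28.8 kb beyond the end of the gene and assigned to Clec16a. It was the only one of 38 regions within 100 kb to be listed, against 5.61% of all regions. The sperm protein gene Tnp2, 2.40 kb from Socs1 on the start side, had no region of its own.

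Socs3 encodes the inhibitor best known for gp130 cytokines such as IL-6, and lies at chr11:117966079-117970336 on the minus strand. Its 8 regions were all unlisted. Besides the start region, 1 region of 337 bp lay inside the annotated span, 211 bp from it. The start used for the window, chr11:117969366, lies inside the span and not at its end. The region of 337 bp is therefore upstream of that start. Beyond the end of the gene were 5 regions, of 515 bp at 15 bp, 730 bp at 2.11 kb, 469 bp at 11.6 kb, 663 bp at 13.4 kb and 250 bp at 16.5 kb. On the start side there was 1, of 221 bp at 5.82 kb. Of the 22 regions within 100 kb of Socs3, whatever their nearest gene, 0 were listed, which allows a share of up to 13.6%. Within 100 kb of Socs7 the count was 0 of 26, which allows up to 11.5%. Both limits lie above the 5.61% of all regions.

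Socs2 encodes a regulator known above all for restraining growth hormone signalling. Its gene at chr10:95383903-95417321 had 14 regions totalling 6750 bp, and 6.67% of protein-coding genes had at least as many. The strand is not given in the sources used here, so positions are stated by coordinate. At the upper end of the gene, 4 regions of 790, 786, 1213 and 233 bp were separated by gaps of only 241, 277 and 309 bp. None of these 4 was listed. The listed region was up, 434 bp wide at chr10:95442311-95442744, 24990 bp above the gene. It stood in a loose group of 4 with unlisted neighbours of 305, 156 and 202 bp. The nearest other protein-coding gene, Mrpl42, was 38.1 kb from it, and the nearest other listed region was 148 kb away. Among the 136 genes with 14 regions, 44.9% had an up region and 19.1% a down region.

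Socs4 and Socs5 encode a pair of closely related members known for targeting the epidermal growth factor receptor. Socs4 (chr14:47276920-47296102, plus strand) had the fewest regions of the family, the start region and 1 of 430 bp inside the gene, both unlisted. Its flanking genes Wdhd1 and Gm35078 lie 59 and 440 bp away, which leaves little room for regions outside it. Of the 2994 genes with 2 regions, 93.5% had none listed. Within 100 kb of Socs4, 1 of 32 regions was listed, against 5.61% of all regions. It was an up region of 388 bp, 75.6 kb away and assigned to Lgals3. Socs5 (chr17:87107278-87137647) had 7 regions. The widest of the family, 1476 bp, lay over its lower end, and 1 of 914 bp lay inside the gene. The up region, 303 bp at chr17:87179962-87180264, was 42.3 kb above the gene and 74.2 kb from the next protein-coding gene, Mcfd2. Regions of 491 and 150 bp directly above it, the first 1503 bp away, were unlisted. On the other side of Socs5, 2 more up regions lay within 100 kb, 54.4 and 95.7 kb away, assigned to Cript and Pigf. Within 100 kb of Socs5, 3 of 16 regions were thus up, against 4.21% of all regions, a difference that was not tested. Among 690 genes with 7 regions, 24.1% had an up region.

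Socs6 and Socs7 encode larger members linked to insulin receptor and receptor kinase signalling. Socs6 (chr18:88865169-88894364) had the most regions, 16, spread over 197 kb, and was the only member with both an up and a down region. Its neighbour below, Cbln2, is 2147 kb away, so that distant regions on that side fall to Socs6 by the rule. Its 2 up regions were 593 bp at chr18:88900094-88900686, 5.73 kb above the gene, and 706 bp at chr18:88737069-88737774, 127 kb below it. The down region, 759 bp at chr18:88924224-88924982, was 29.9 kb above the gene. The upper up region and the down region were thus 23.5 kb apart, with 2 unlisted regions of 322 and 315 bp between them. The region over the upper end of the gene, 1235 bp wide, was unlisted, as were both regions inside. Of the 126 genes with 16 regions, 36.5% had an up region and 19.8% a down region.

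Socs7 (chr11:97362292-97398542) had 6 regions and none was listed. Over its lower end lay a region of 948 bp, followed 243 bp further on by 1 of 759 bp inside the gene. The other regions inside measured 336 and 216 bp, and those outside 224 bp at 4.33 kb below and 437 bp at 1.71 kb above. Among genes with 6 regions, 72.5% had none listed.

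**Figure D4:**
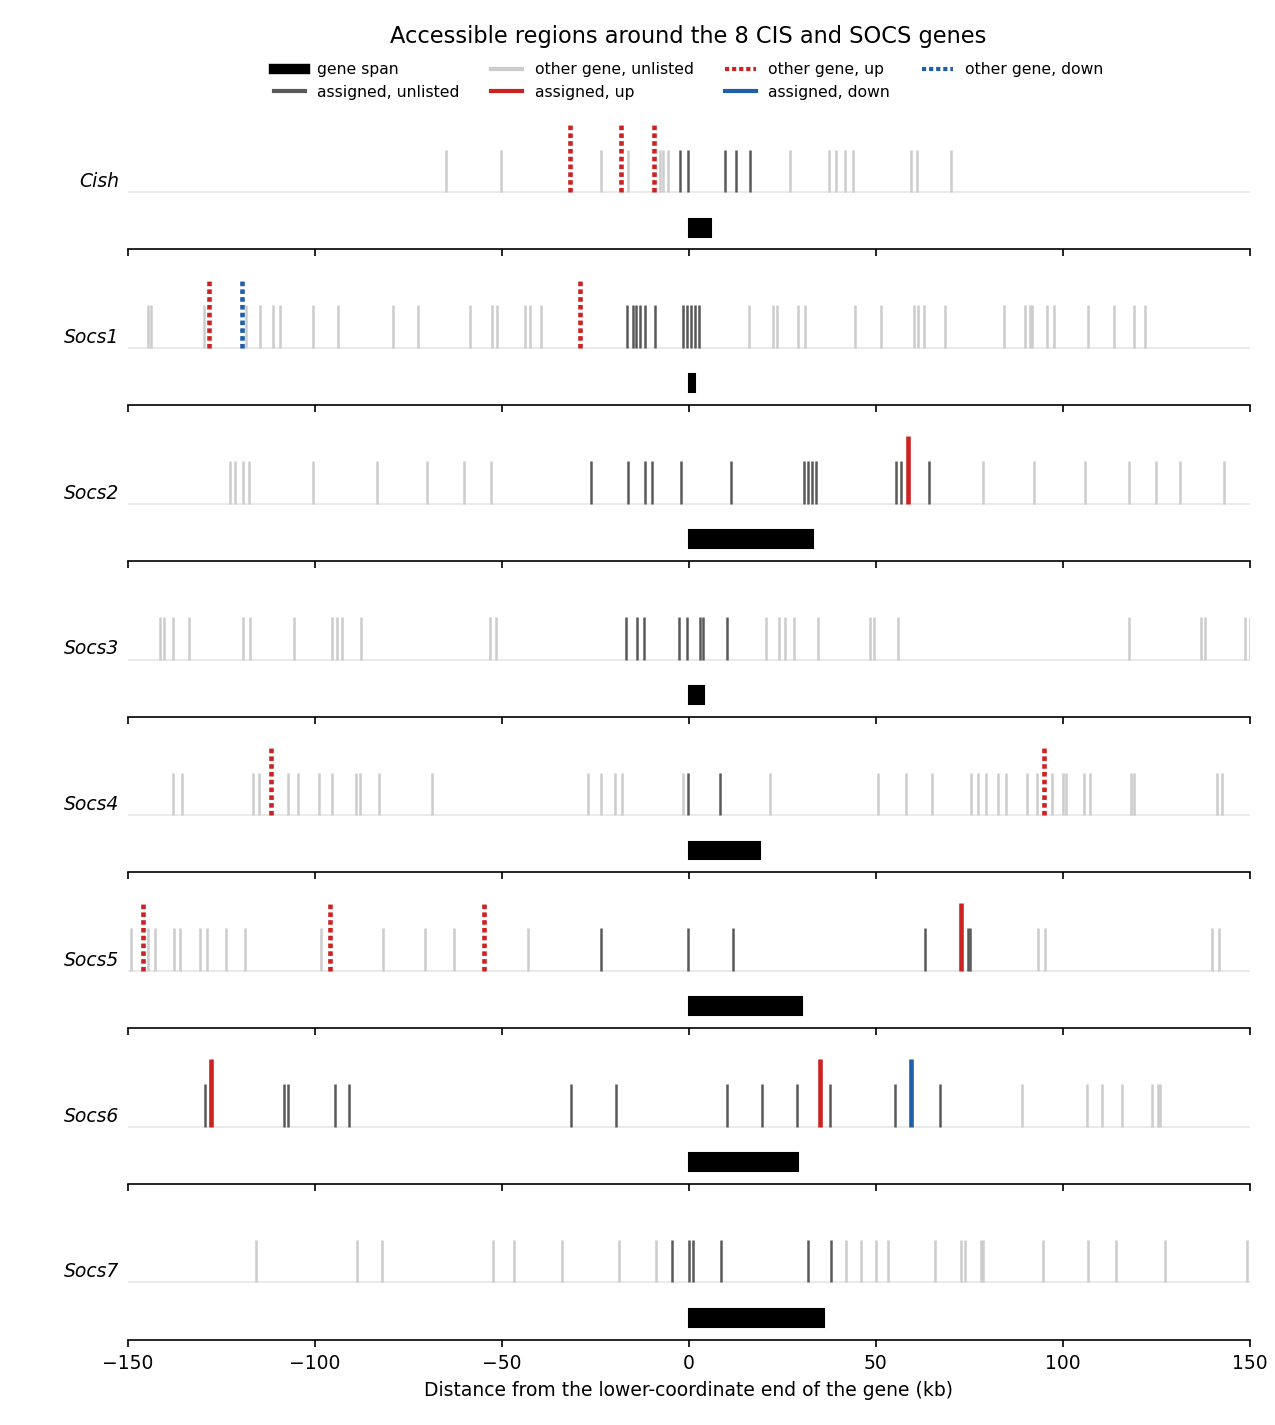
Accessible regions within 150 kb of the 8 genes, by distance in kb from the lower-coordinate end of each gene (black bar: gene span). Dark ticks are unlisted regions assigned to the gene, pale ticks those of other genes, and taller ticks listed regions (red up, blue down, dotted where assigned to another gene). The 3 dotted red ticks left of Cish are the up regions inside Mapkapk3, and no listed tick of a member's own lies over a black bar.

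All regions within 100 kb of a member were also counted, whatever gene was nearest. Of these 201 regions, 10 were up (4.98%, near the 4.21% of all regions) and 1 was down (0.498%, against 1.40%). The 16 genes that flank the members, 1 on each side, had 129 regions, 6 up and 1 down. Those of Mapkapk3 and Cript are given above, and Clec16a had 2 up and 1 down of 25. Cradd (25 regions), Rttn (15), Arhgap23 (12), Pgs1 (7), Tha1 (6) and Gpr179 (2) had none listed. The count within 100 kb adds 7 listed regions of other genes, all up, of which 3 are those of Mapkapk3, and leaves out the Socs6 up region at 127 kb. Within 10 kb there were 47 regions, of which 2 were up (4.26%, against 4.21%), 1 at Socs6 and 1 at Cish, and 0 were down. The median member had 5.5 regions within 10 kb and the median protein-coding gene 3.

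The rest of the pathway was described by 4 gene lists. Upstream of the family, the 16 genes of the JAK-STAT list (receptor chains, kinases and STAT factors) held 154 regions, 1 up (0.649%, against 4.21% of all regions) and 5 down (3.25%, against 1.40%). The down regions belonged to the kinase genes Jak1 (2 of 40 regions, with 1 up) and Jak2 (1 of 6) and to the IL-15 receptor chain genes Il2rb (1 of 12) and Il2rg (1 of 3). The 7 STAT genes, a part of this list that the plan did not set apart, had 55 regions with 0 listed. All listed regions of the list belong to its other genes, so this 0 sets no limit on a share. The listed regions of Jak2, Il2rb and Il2rg lay within the gene, as did 2 of the 3 of Jak1, whose other listed region was 11.3 kb away.

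Among the 12 genes for other negative regulators there were 192 regions, 3 up (1.56%, against 4.21% of all regions) and 2 down (1.04%, against 1.40%). Phosphatase genes held the up regions, 1 each at Ptpn1 (within the gene), Ptpn11 (29.2 kb away) and Ptprc (23.2 kb away). Both down regions belonged to Cblb, which encodes a ubiquitin ligase, with 1 inside the gene and 1 at 311 kb. The 6 genes for ligase subunits, among them the elongins and cullin 5 that the SOCS box recruits, held 19 regions with 0 listed, which allows up to 15.8%, against 5.61% of all regions. The 10 STAT5 target genes held 191 regions, 1 up (0.524%, against 4.21%) and 5 down (2.62%, against 1.40%). Of these genes, Mcl1 had 1 up region at 11.2 kb, Bcl2, which encodes a survival protein, 3 down regions within the gene, and Myc 2 down regions at 503 and 817 kb. The lists differ in size and gene length, and no difference between them and the family was tested.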

How the data were processed

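ATAC-seq was performed on 4 samples, 2 per IL-15 dose. The submitters' processing notes name the build mm10 and the tools BWA, MACS2, ArchR and HOMER 4.11.1 without their roles. The caller's threshold, the differential test, its cutoff and the pooling of samples are not given in the sources used here. The 3 deposited tables give region positions and, in 1 of them, region width in bp. They contain 0 columns of values per sample, so no depth, replicate error or test of the doses could be had, and the planned count test was not run. Per the file contents, starts in the table of all regions are 0-based and were raised by 1. Each listed region was then matched by identity. All coordinates are 1-based.

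Genes came from a RefSeq table of GRCm38.p6, the assembly that mm10 names, with 21900 protein-coding genes, and promoter windows from RefSeq for 4 members. Socs2, Socs5, Socs6 and Socs7 have no window there. Members were matched by current symbol, since some synonyms overlap. Exon structure was not used here. Distance was measured to the gene span, with ties to the gene with the nearer end. Intervals are 95% Wilson intervals, and a count of 0 was read as allowing 3 counts. Assignment and motif search were tested on simulated data. Python 3.11.15, pandas 2.3.3 and scipy 1.17.1 were used. Named are all members, their listed regions and flanking genes, and genes of the fixed lists with a listed region. Emp1, Lgals3, Pigf, marker genes and noncoding genes fall outside this rule, and all but the markers were named after their values were seen. Members, gene lists and motifs were chosen with earlier results of these data known. Alternatives were other assignment rules, a width minimum, overlap rules, leaving out a member and another motif.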

Additional observations from a re-analysis of the deposited data

How the results depend on the processing

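No paired analysis was possible because the tables analysed hold no values per sample, and leaving out a replicate or setting a stricter threshold on the authors' calls was not run for the same reason. For 6 results 25 alternatives were run, of which 16 stayed within 1.5 times the reported value and 9 moved. Assigning regions to the nearest gene of any biotype left 44 of the 69 regions and 1 of the 4 up regions. Counting every region in a member or within 10 kb gave 2 up and 0 down regions. Within 100 kb there were 201 regions with 10 up. Without Socs6, which has the most regions, 2 up and 0 down regions remained. These changes follow from which regions each rule counts. A STAT motif with 4 bases between TTC and GAA was found in 0 of the 4 windows, in place of 2. The 2 overlap rules could not change a count, since the lists use the same regions, end for end, as the full table. With 69 regions and few calls, small differences from the background are not detectable.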

Other observations

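Noncoding genes share several of these loci. When genes of any biotype were allowed, 25 of the 69 regions went to a gene that does not code for protein. Among them were 3 of the 4 up regions. Not all 25 were nearer to the noncoding gene. At Socs5, 1 region overlapped both the member and Gm30510, and went to the latter by the rule for ties. At Socs2, 10 of 14 regions went to the long noncoding RNA genes 5730420D15Rik (6 regions, with the up region), 2310039L15Rik (3) and Gm33230 (1). At Socs5, 4 regions including the up region were nearest to the long noncoding RNA gene C330024C12Rik, and 1 region remained with Socs5. At Socs6, 8 regions were nearest to the pseudogenes Gm6409 (6) and Gm7662 (2, with the up region 127 kb from Socs6). In contrast, all regions of Socs1 (11), Socs3 (8), Socs4 (2) and Socs7 (6) stayed with the member, and Cish kept 4 of 5. The genes were named after these counts were seen.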
